A study of Mus musculus with 2 samples.

Results

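Cd177, Ceacam10 and Ceacam1 are 3 neutrophil cell-surface and secreted-protein genes of mouse chromosome 7, and they were followed here in 2 single-cell libraries of leukemic promyelocytes. They were taken as the rows with these gene symbols, 3 of the 32285 rows in each matrix. They had been chosen by their higher CPM in the retinoic acid library, so that difference is given as a description, without a test. One library came from mice given retinoic acid and the other from mice given vehicle. Cd177 was 23.8-fold and Ceacam10 31.0-fold higher in the retinoic acid library, and Ceacam1, at far lower counts, was 4.59-fold higher.

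CD177 is a glycoprotein of the uPAR/Ly6 family that is held by a glycosylphosphatidylinositol (GPI) anchor on the neutrophil surface and on specific granules. It presents proteinase 3, the product of Prtn3, on the cell surface and binds the integrin Mac-1 and the endothelial adhesion molecule PECAM1. CEACAM1 is a transmembrane adhesion receptor of the immunoglobulin superfamily whose cytoplasmic inhibitory motifs recruit the phosphatases SHP-1 and SHP-2, the products of Ptpn6 and Ptpn11. Ceacam10 is a rodent gene for a secreted protein of the same carcinoembryonic antigen family, with immunoglobulin variable-like domains and no membrane anchor. CD177 appears as neutrophils mature and is used as a marker of that process.

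Both libraries held progenitors transformed by PLZF/RARA, a fusion of a zinc finger repressor with retinoic acid receptor alpha that drives a leukemia resistant to retinoic acid. The cells were late promyelocytes sorted from leukemic bone marrow as Cd45.2+, c-Kit+, Gr1+, Cd34- and FcγR+. The vehicle group had received corn oil with 10% DMSO and the treated group 0.8 to 1 mg of retinoic acid, in both cases by intraperitoneal injection over 7 days. Each cohort numbered 3 to 5 mice, and the capture aimed at 6000 cells. The number of mice behind each library, their strain and their age are not given in the sources used here. Each group is 1 library, so no comparison between them has a replicate check. All intervals below are 95% intervals that cover counting error only: exact Poisson for levels, exact binomial for shares of cells, and intervals built from these for ratios and differences.

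After filters, 5476 vehicle cells held 99107718 UMIs and 7140 retinoic acid cells held 110088247 UMIs. A UMI is the molecular tag that marks 1 captured transcript, and levels are UMIs per 1000000 UMIs of the library (CPM). Of the cells with at least 5000 UMIs, 4274 of 5282 under vehicle and 6261 of 6659 under retinoic acid carried at least 3 of 6 promyelocyte markers. The markers behind these shares were not the same in the 2 libraries. Elane (62.8 and 7663 CPM), Prtn3 (246 and 2819) and Ms4a3 (850 and 2087) were higher under retinoic acid. Mpo (311 and 0.50 CPM) was lower, and Ctsg (6444 and 5979) and Prss57 (377 and 315) stayed within 2-fold. The summed CPM of 7 mast cell and basophil markers was 803 under vehicle and 68.1 under retinoic acid, with 1 and 2 of them at 0. Cpa3 (570 and 0.10 CPM) made up most of this sum under vehicle and Mcpt8 (122 and 63.1 CPM) under retinoic acid. Ms4a2 was higher under retinoic acid (1.45 and 2.05 CPM). The summed CPM of 7 late neutrophil markers was 27.1 and 360, with none at 0. Retnlg (3.28 and 234 CPM) and Ltf (4.73 and 105 CPM) made up most of the latter sum under retinoic acid. Under vehicle most of it was Cxcr2, which was lower under retinoic acid (16.6 and 6.82 CPM). The part of these cells in the ratios was not tested beyond the values given below. The libraries shared 11 cell barcodes.

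Cd177 and Ceacam10 lie head to head. In GENCODE M21 (GRCm38), Cd177 (ENSMUSG00000052212) runs on the minus strand of chr7:24743983-24760311 and Ceacam10 (ENSMUSG00000054169) on the plus strand of chr7:24777206-24784657. Their start sites were 16.9 kb apart and pointed away from each other, and 0 genes with a row in the matrices started between them. Ceacam1 (ENSMUSG00000074272) lies on the minus strand of chr7:25461707-25477603, its start site 717 kb from that of Cd177. The 250 bases before each start site (RefSeq, GRCm38.p6) are printed 5′ to 3′ in the direction of transcription, because they show which of the 3 promoters resemble each other. In Cd177, at chr7:24760312-24760561 on the minus strand, capitals mark the matches to the motifs searched. In Ceacam10, at chr7:24776954-24777203 on the plus strand, and in Ceacam1, at chr7:25477626-25477875 on the minus strand, capitals mark the bases at which their alignment is not identical.
Cd177: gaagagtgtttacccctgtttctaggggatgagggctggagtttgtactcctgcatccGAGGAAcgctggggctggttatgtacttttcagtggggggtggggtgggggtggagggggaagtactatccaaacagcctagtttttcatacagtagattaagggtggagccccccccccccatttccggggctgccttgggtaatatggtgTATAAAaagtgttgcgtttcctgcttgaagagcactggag
Ceacam10: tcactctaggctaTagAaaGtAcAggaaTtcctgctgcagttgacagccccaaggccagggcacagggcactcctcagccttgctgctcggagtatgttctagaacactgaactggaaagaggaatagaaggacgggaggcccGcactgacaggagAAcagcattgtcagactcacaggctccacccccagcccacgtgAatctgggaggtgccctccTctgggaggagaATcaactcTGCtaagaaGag
Ceacam1: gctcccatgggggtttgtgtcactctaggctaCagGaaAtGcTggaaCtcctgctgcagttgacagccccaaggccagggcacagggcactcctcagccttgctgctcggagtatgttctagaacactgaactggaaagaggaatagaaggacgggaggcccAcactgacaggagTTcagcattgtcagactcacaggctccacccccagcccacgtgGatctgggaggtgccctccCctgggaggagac

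The Ceacam10 and Ceacam1 promoters were near-copies of each other. Of 231 aligned upstream bases, 220 were identical (95.2%) and 11 differed. In Ceacam10, 2 further capitals have no partner in the alignment and 4 face bases past the Ceacam1 start site, and the first 19 bases of Ceacam1 were not aligned. Over the whole windows of the RefSeq table, which reach past the start site, 261 of 283 aligned positions were identical. The promoter of Ceacam2, the closest paralog of Ceacam1, aligned to Ceacam10 over 110 positions, 94 of them identical. Cd177 aligned to Ceacam10 over only 15 positions and to Ceacam1 over 16. The nearly identical promoters thus belonged to 2 genes that lie 677 kb apart, not to the head-to-head neighbours.

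A search of both strands used 5 motifs, chosen after these sequences had been seen. The C/EBP core TTGCNNAA and the retinoic acid receptor half-site AGGTCA had 0 matches in all 3 windows; they occur in 9.56% and 14.02% of 32851 mouse promoter windows of this length. The ETS core GAGGAA, found in 23.3% of all windows, had 1 match in each of the 3. The TATA box TATAAA (12.4% of all windows) matched once, in Cd177, with its first base 40 bases before the start site. The E-box CACGTG (6.02% of all windows) matched once in Ceacam10 and once in Ceacam1, inside their shared stretch. A match describes letters only, and no match says only that the letters are not in this window.

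Cd177 gave 1298 UMIs in the vehicle library, 13.1 CPM (12.4 to 13.8), and 34274 in the retinoic acid library, 311 CPM (308 to 315). The log2 ratio was 4.57 (4.49 to 4.65). Ceacam10 gave 528 UMIs under vehicle, 5.33 CPM (4.88 to 5.80), and 18206 under retinoic acid, 165 CPM (163 to 168), a log2 ratio of 4.95 (4.83 to 5.08). Both genes were thus low under vehicle and well expressed under retinoic acid, with counting intervals far apart. Ceacam1 gave 319 UMIs under vehicle, 3.22 CPM (2.88 to 3.59), and 1630 under retinoic acid, 14.8 CPM (14.1 to 15.5). Its log2 ratio was 2.20 (2.03 to 2.38), and it stayed below the 20 CPM asked of a gene in either library to count as tested.

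A level of 20 CPM in one library or the other was reached by 5548 genes, of which 448 (8.07%) differed 2-fold or more and 168 (3.03%) were at least 2-fold higher under retinoic acid. Cd177 and Ceacam10, the 2 members that passed the 20 CPM limit, were both among the latter, as their choice required, and nothing is read from that count. Over all 5548 genes the median log2 ratio was 0.01. By the size of the rise Ceacam10 ranked 14th and Cd177 19th of these genes, and 8th and 10th among genes reaching 50 CPM. In the latter ranking Lrg1, a secreted leucine-rich glycoprotein, lay between them at a log2 ratio of 4.81, and Ltf, which encodes lactoferrin, followed Cd177 at 4.47.

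The 3′ ends of the transcripts, where the reads of this assay fall, were not equally unique. Of the 50-base words in the last 500 bases of the longest coding transcript, 0% occurred in another gene for Ceacam10, 33.9% for Cd177 and 94.7% for Ceacam1. The words of Ceacam1 recurred in Ceacam2, which had 2 and 4 UMIs in the vehicle and retinoic acid libraries. Those of Cd177 recurred in its neighbours Lypd10 (2 and 22 UMIs) and Lypd11 (0 and 3 UMIs). How reads that fit several genes were counted is not given in the sources used here, so the counts of Ceacam1, and of Cd177 in part, are uncertain in a way those of Ceacam10 are not.

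**Figure D1:**
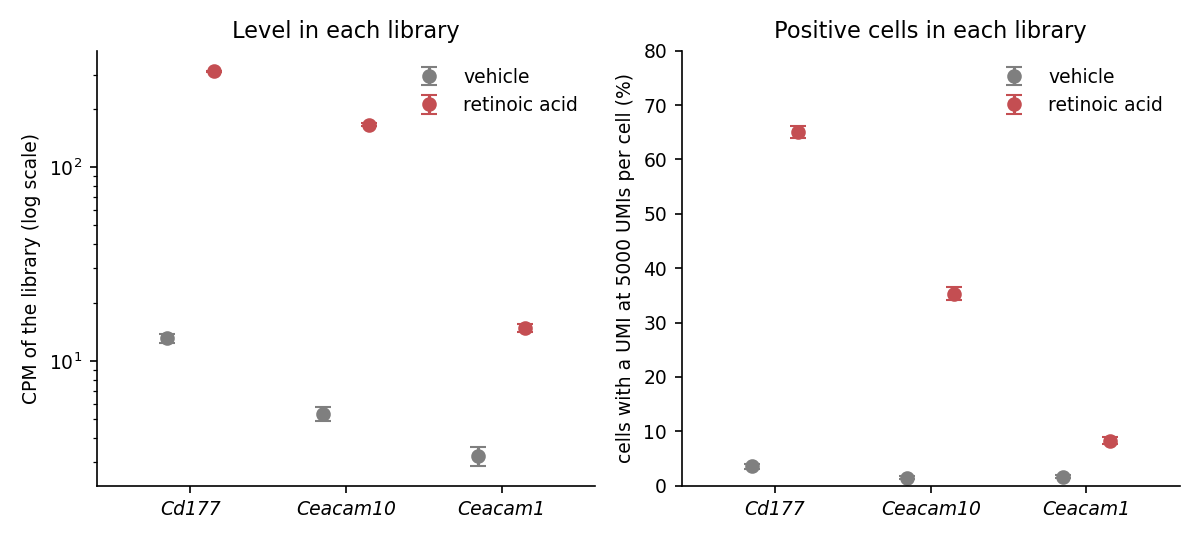
Left, level of each gene in each library in CPM on a log axis, with exact Poisson 95% intervals; right, share of cells with at least 1 UMI after every cell was thinned to 5000 UMIs, with exact binomial 95% intervals. Each point is 1 library. Every retinoic acid point lies above its vehicle point, from 3.22 to 14.8 CPM for Ceacam1 and from 13.1 to 311 CPM for Cd177.

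Cells with a Cd177 UMI were far more frequent in the retinoic acid library. To compare cells of unequal depth, each cell was thinned at random to 5000 UMIs, which left out 194 vehicle cells and 481 retinoic acid cells. A Cd177 UMI was then seen in 187 of 5282 vehicle cells (3.54%, 3.06 to 4.07) and in 4335 of 6659 retinoic acid cells (65.1%, 63.9 to 66.2). The shares were 61.6 percentage points apart (60.3 to 62.8). With at least 2 UMIs asked of a cell, they were 1.29% and 41.9%. Ceacam10 was seen in 79 vehicle cells (1.496%) and 2352 retinoic acid cells (35.3%), which is 33.8 points apart (32.6 to 35.0). Ceacam1 was seen in 88 vehicle cells (1.67%) and 553 retinoic acid cells (8.30%), which is 6.64 points apart (5.89 to 7.39). Without thinning the shares went from 9.15% to 85.5% for Cd177, from 2.57% to 55.2% for Ceacam10 and from 5.41% to 18.4% for Ceacam1.

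Free RNA in droplets sets a floor under such shares. In 648 vehicle cells with at least 3 of 7 mast cell and basophil markers, Cd177 was seen in 0.772%, Ceacam10 in 0.617% and Ceacam1 in 1.70%. Those cells had a median of 15302 UMIs before thinning, against 16749.5 for the vehicle library. The share of Ceacam1 over all vehicle cells was no higher than in these cells, so nothing is read from it. Whether these cells themselves express Ceacam1 was not tested. Free RNA was not measured, and how much of the Ceacam1 in these cells comes from it was not tested. Cd177, with 1298 UMIs in the vehicle library against 319 for Ceacam1, was seen in fewer of them. The Ceacam1 share was not even across vehicle cells ranked by granule share, as described below. It was 0.757% (0.364 to 1.39) in the lowest and 2.58% (1.79 to 3.58) in the highest of 4 groups. Only 2 such cells and 11 cells with eosinophil markers were present in the retinoic acid library, too few for a floor there. In both libraries 0 cells carried 3 markers of monocytes, B cells, T or NK cells, erythroid cells or megakaryocytes.

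The number of UMIs per positive cell also differed among the genes. In the retinoic acid library the highest thinned value was 16 UMIs in a cell for Cd177, 26 for Ceacam10 and 3 for Ceacam1. Of the positive cells there, 35.6% held a single UMI of Cd177, 47.2% of Ceacam10 and 88.6% of Ceacam1. The 714 cells richest in each gene carried 32.5% of the Cd177 UMIs, 57.4% of the Ceacam10 UMIs and 63.1% of the Ceacam1 UMIs before thinning. Cd177 was therefore spread over many cells and Ceacam10 gathered in fewer; the Ceacam1 value is set largely by counts of 1. Under vehicle, 51 cells held at least 50% of all Cd177 UMIs and 13 cells held at least 50% of all Ceacam10 UMIs.

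**Figure D2:**
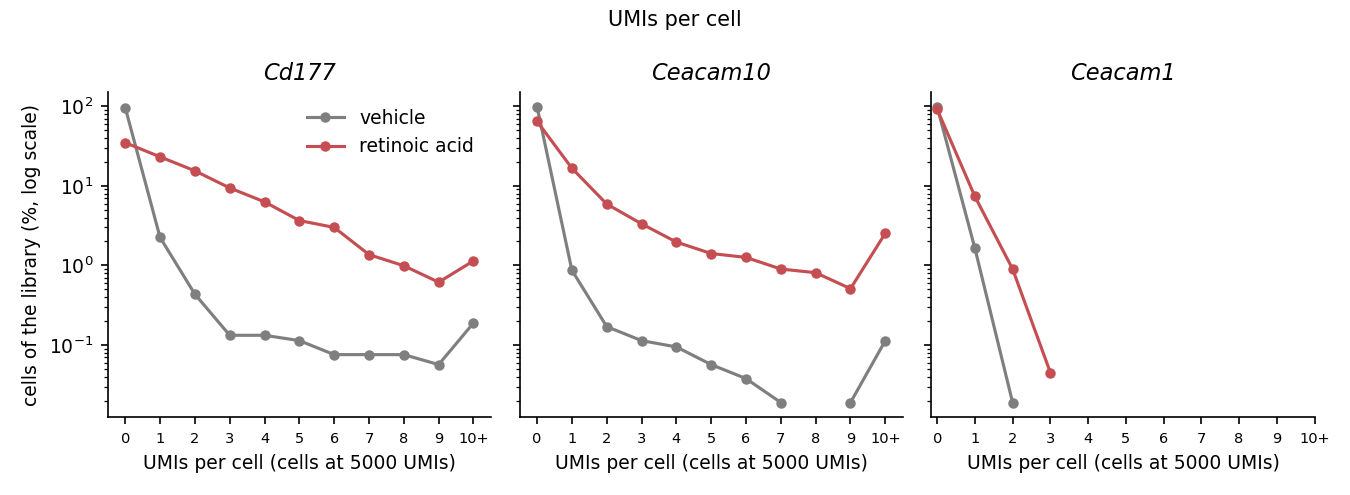
Share of cells (log axis) by the number of UMIs of each gene in a cell thinned to 5000 UMIs, for the vehicle and the retinoic acid library; values of 0% are not drawn, and the last point pools 10 or more. Under retinoic acid Ceacam10 has the longest tail, up to 26 UMIs, and Ceacam1 ends at 3.

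The position of each cell along neutrophil granule production was described with a list of 16 granule and late-maturation genes, such as Camp, Ngp and Lcn2, that holds none of the members. The list was chosen with earlier results of these data known. Each cell's share of UMIs in this list is called its granule share here. In the retinoic acid library, cells were ranked by granule share and put in 4 groups of near-equal size, with medians of 0.84%, 2.36%, 5.80% and 20.4%. Cd177 went over these groups from 79.3 CPM (76.2 to 82.5) through 192 and 364 to 760 CPM (748 to 772). Ceacam10 went from 16.8 CPM (15.3 to 18.3) through 41.0 and 107 to 638 CPM (627 to 650). Ceacam1 went from 5.78 CPM (4.96 to 6.69) through 9.04 and 14.9 to 35.9 CPM (33.3 to 38.7).

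All 3 genes were thus higher in each successive group, and they differed in how steep the gradient was. Set against the lowest group, the highest had a log2 ratio of 3.26 (3.20 to 3.32) for Cd177, 5.25 (5.13 to 5.38) for Ceacam10 and 2.63 (2.40 to 2.88) for Ceacam1. The intervals of the 3 ratios did not overlap. Median depth fell over the same groups from 17868 to 10780 UMIs, and its part in the gradient was not tested; values at a fixed 5000 UMIs ran from 78.1 to 803 CPM for Cd177 and from 16.5 to 729 CPM for Ceacam10. Positive cells in the highest group made up 94.95% for Cd177, 80.05% for Ceacam10 and 17.6% for Ceacam1. In the lowest group they made up 30.5%, 7.93% and 3.24%.

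The ratio of Ceacam10 to Cd177 was higher in cells of high granule share. These counts are taken at the 3′ end, 1 UMI per molecule, and the ratio is read across cells and not as a comparison of the levels of the genes. Under retinoic acid there were 21.2 Ceacam10 UMIs per 100 of Cd177 (18.3 to 24.4) in cells with a granule share of 0.3 to 1%. There were 20.9 (19.6 to 22.3) at 1 to 3%, 28.4 (27.3 to 29.6) at 3 to 10% and 82.6 (80.7 to 84.6) at 10% and above. The vehicle library gave 12.7 (7.63 to 19.98), 30.4 (20.9 to 43.4), 56.3 (45.5 to 69.3) and 66.1 (56.2 to 77.5) in the same ranges. Under retinoic acid the ratio was thus alike in the lower 2 of these ranges and climbed at the top, and under vehicle it was already higher at 1 to 3%.

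**Figure D3:**
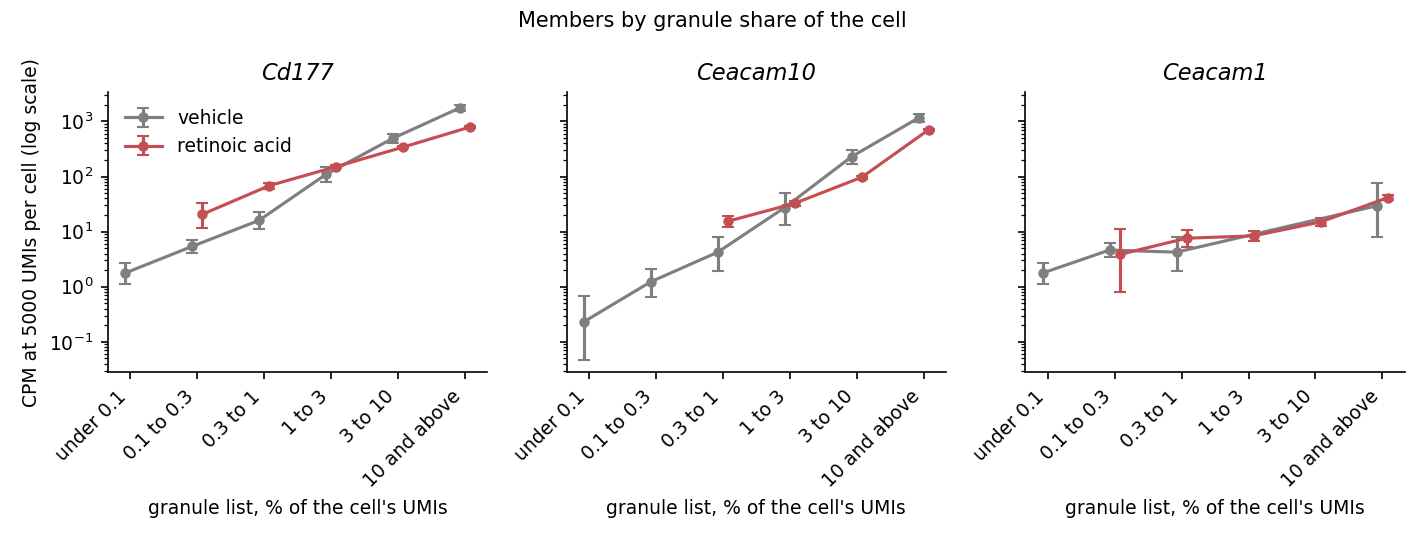
CPM of each gene (log axis, cells thinned to 5000 UMIs) in fixed ranges of the cell's granule share, for both libraries, with exact Poisson 95% intervals; points from fewer than 3 UMIs are not drawn. The libraries cross for Cd177: retinoic acid lies above vehicle at 0.3 to 1% (68.1 against 16.0 CPM) and below it at 10% and above (792 against 1770 CPM).

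Almost all vehicle cells were poor in granule transcripts, and the few that were not carried much of the vehicle signal. Of 5282 vehicle cells, 27 (0.511%) had a granule share of 10% or more, against 1721 of 6659 (25.8%) under retinoic acid. These 27 cells held 48.6% of the Cd177 UMIs and 66.0% of the Ceacam10 UMIs of the thinned vehicle library, but 4.49% of the Ceacam1 UMIs. Cd177 was present in 27 of them and so was Ceacam10, while Ceacam1 was present in 4. Of the 1721 retinoic acid cells in that range, 1635 had Cd177, 1361 (79.1%) had Ceacam10 and 302 (17.5%) had Ceacam1.

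The cells of highest granule share were not alike in the 2 libraries in other genes, looked up after the values above were known. Elane, the primary granule gene for neutrophil elastase, stood at 4.13 CPM in the 27 vehicle cells and at 3555 CPM in the 1721 retinoic acid cells. Ctsg, which encodes cathepsin G of the same granules, stood at 165 and 1396 CPM. Ltf, of the later specific granules, stood at 1389 and 474 CPM, and Camp, the cathelicidin gene, at 39566 and 58079 CPM. Retnlg and Ly6g, also genes of later neutrophils, stood at 641 and 960 CPM and at 570 and 1128 CPM. Mki67, a marker of dividing cells, stood at 49.6 and 204 CPM. Median depth in these cells was 8131 UMIs under vehicle and 10899 under retinoic acid. In the other cells of the vehicle and retinoic acid libraries Elane stood at 63.2 and 8696 CPM and Ctsg at 6484 and 7104 CPM. Elane thus differed between the libraries outside this range as well.

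Within ranges of granule share from 0.1% up, the difference between the libraries in Cd177 and Ceacam10 was smaller than over all cells and changed direction. The range under 0.1% held 2601 vehicle cells but only 13 retinoic acid cells and is not compared. For Cd177 at 0.1 to 0.3%, 2116 vehicle cells stood at 5.39 CPM and 156 retinoic acid cells at 20.5 CPM. That is a log2 ratio of 1.96 (1.03 to 2.75). For Cd177 at 0.3 to 1%, 425 vehicle cells stood at 16.0 CPM and 869 retinoic acid cells at 68.1 CPM, a log2 ratio of 2.07 (1.58 to 2.65). At 1 to 3%, the values were 110 and 151 CPM (0.45, 0.01 to 0.95). At 3 to 10%, they were 495 CPM in 40 vehicle cells and 341 CPM in 1989 retinoic acid cells (-0.54, -0.82 to -0.23). At 10% and above they were 1770 and 792 CPM (-1.16, -1.35 to -0.97). Cd177 was therefore higher under retinoic acid in cells with little granule RNA and lower in the 2 upper ranges.

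Ceacam10 was also higher under retinoic acid at low granule share and lower in the upper 2 ranges, with its lowest ratio at 3 to 10%. At 0.1 to 0.3%, the interval ran from -2.13 to 3.20, with 2 retinoic acid UMIs behind the value. At 0.3 to 1%, Ceacam10 stood at 4.24 CPM under vehicle and 15.4 CPM under retinoic acid, a log2 ratio of 1.80 (0.85 to 3.05). At 1 to 3%, the values were 27.4 and 32.7 CPM, with an interval from -0.65 to 1.33. At 3 to 10%, they were 230 and 97.0 CPM (-1.26, -1.67 to -0.79), and at 10% and above 1163 and 710 CPM (-0.72, -0.94 to -0.47). For Ceacam1 the interval spanned 0 in each of the 5 ranges from 0.1% up, with 2 to 49 vehicle UMIs behind a value. Granule share was not fully matched inside a range: its median was 0.42% under vehicle and 0.66% under retinoic acid at 0.3 to 1%, and 17.0% and 19.9% at 10% and above. An alternative added after the data were seen left out the cells at 10% and above in both libraries. It used only cells with at least 5000 UMIs. The log2 ratio over the remaining cells was 4.54 (4.44 to 4.64) for Cd177, 4.34 (4.16 to 4.53) for Ceacam10 and 1.61 (1.42 to 1.80) for Ceacam1. Over all cells with at least 5000 UMIs it was 4.59 for Cd177, 4.94 for Ceacam10 and 2.17 for Ceacam1. The fold was thus smaller without these cells for Ceacam10 and Ceacam1. For Cd177 the interval without them included 4.59.

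Cd177 and Ceacam10 met in the same cells. In the thinned retinoic acid library 2027 of 6659 cells (30.4%) had both, against 23.0% for the product of the single shares, and the log2 odds ratio was 2.43 (2.24 to 2.62). Of the Ceacam10-positive cells 86.2% had Cd177, and of the Cd177-positive cells 46.8% had Ceacam10. Ceacam10 was seen in 13.98% of the cells without Cd177. Most cells with Ceacam10 thus had Cd177 as well, and fewer than 50% of the cells with Cd177 had Ceacam10.

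In 3 of 4 groups by granule share the overlap was smaller than over all cells. Granule share still varied inside a group, from 0.02% to 1.52% in the lowest and from 10.4% to 57.2% in the highest. Within the 4 groups by granule share the log2 odds ratio of this pair was 0.78 (0.25 to 1.30), 0.51 (0.14 to 0.89), 0.75 (0.37 to 1.12) and 1.71 (1.06 to 2.35) from the lowest to the highest. The first 3 intervals lie below that over all cells, and the interval of the highest group reaches it. Cells with both made up 3.303%, 10.9%, 30.5% and 77.2% of the groups, against products of 2.41%, 9.63%, 28.6% and 76.0%. Pearson's r of log1p UMIs between the 2 genes was 0.54 over 6659 cells. Cells within a library share its depth and its free RNA, so these values are descriptions.

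Under vehicle both genes met in 49 of 5282 cells (0.928%, 0.687 to 1.22), against a product of 0.0530%, a log2 odds ratio of 5.89 (5.20 to 6.59). The vehicle cells were ranked in the same way, into groups with median granule shares of 0.02%, 0.06%, 0.12% and 0.26%. The highest vehicle group began at 0.16%, and its median lay below the 0.84% of the lowest retinoic acid group. The 49 cells were in the highest vehicle group, and 0 cells of the 3 lower groups had both. In those 3 groups 48 cells had Cd177 alone and 12 had Ceacam10 alone. Pearson's r between them was 0.69 over 5282 cells.

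**Figure D4:**
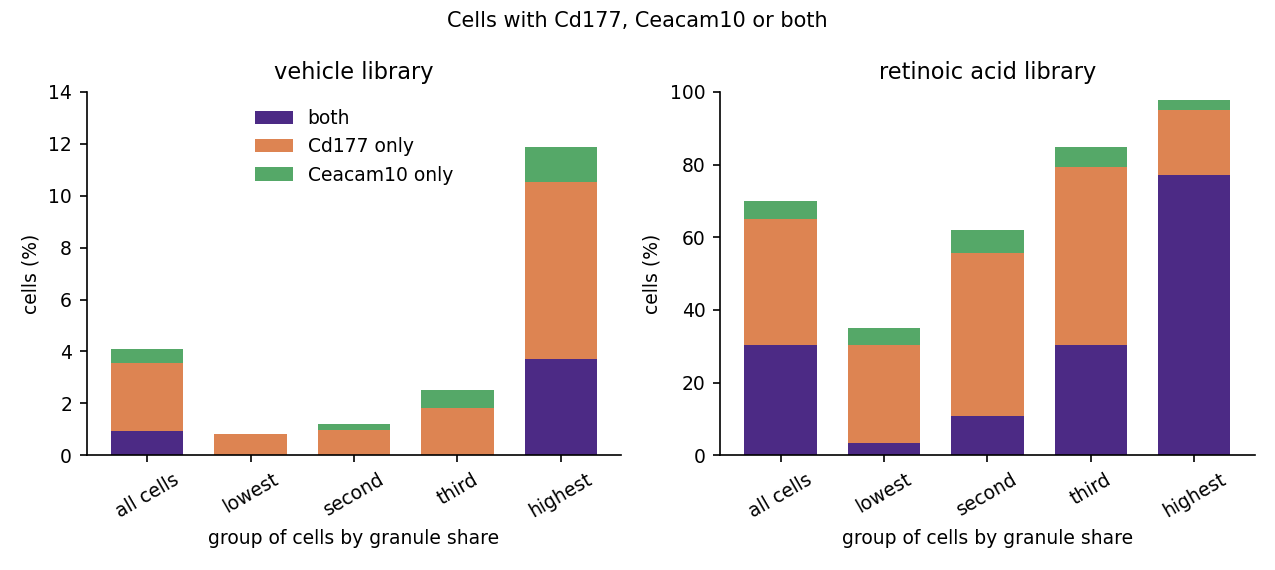
Share of cells with Cd177 and Ceacam10 together, with Cd177 only and with Ceacam10 only, over all cells and by group of granule share within each library (cells thinned to 5000 UMIs); the axis ends at 14% for vehicle and at 100% for retinoic acid. Cells with both rise to 77.2% in the highest retinoic acid group and appear under vehicle in the highest group alone. Median granule shares run from 0.02% to 0.26% in the vehicle groups and from 0.84% to 20.4% in the retinoic acid groups. Groups of the same name are thus not alike in granule share.

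Ceacam1 overlapped less with the other 2 genes than they did with each other, but 88.6% of its positive cells under retinoic acid held a single UMI. With 2 UMIs asked of a cell there, the log2 odds ratio was 1.90 with Cd177 and 2.48 with Ceacam10, against 3.25 for Cd177 and Ceacam10. The part of the sparse counts in the lower overlap was not tested. Under retinoic acid 429 cells had Ceacam1 and Cd177, with a log2 odds ratio of 0.96 (0.66 to 1.26), and 317 cells had Ceacam1 and Ceacam10, with 1.43 (1.17 to 1.68). Within the groups by granule share the interval for Ceacam1 and Cd177 spanned 0 in the lower 3, and in the highest the ratio was -1.07 (-1.76 to -0.37): Ceacam1 was seen in 17.0% of the cells with Cd177 and in 29.8% of the 84 cells without it. For Ceacam1 and Ceacam10 the ratio was 1.13 (0.04 to 2.21) in the lowest and 0.53 (0.04 to 1.03) in the highest group, and its interval spanned 0 in the other 2. Counting all 3 genes, 1906 retinoic acid cells had none, 2552 had 1, 1915 had 2 and 286 had 3. Under vehicle 4988 cells had none, 239 had 1, 50 had 2 and 5 had 3.

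Over all retinoic acid cells the members were seen more often in cells called G1, while in the lower 3 groups by granule share the phases overlapped within their intervals for Cd177 and Ceacam10. Phases were called from the S and G2/M gene lists on both libraries together, and in the retinoic acid library 1686 cells were called G1, 1892 S and 3081 G2/M. Cd177 was seen in 71.8% (69.6 to 73.9) of G1, 65.3% of S and 61.3% (59.6 to 63.0) of G2/M cells. Ceacam10 was seen in 50.4% (47.9 to 52.8), 35.6% and 26.9% (25.4 to 28.5), and Ceacam1 in 12.2%, 7.14% and 6.91%. In the lowest group Cd177 was seen in 28.1% of G1, 29.2% of S and 32.0% of G2/M cells, and Ceacam10 in 7.10%, 10.1% and 7.11%. In the group of highest granule share Ceacam10 stood at 1078 CPM in G1, 574 in S and 351 in G2/M, while Cd177 stood at 936, 735 and 669 CPM. The median granule share of those cells also differed, at 29.1%, 18.7% and 15.1%, and its part in the difference was not tested. G1 cells made up 43.3% of the highest group and 20.3% of the lowest.

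The 5 genes most like Cd177 across retinoic acid cells were all on the list of granule and late-maturation genes. By Pearson's r of log1p UMIs over 6659 cells and among genes with at least 50 CPM, Cd177 was closest to Camp (0.62), Ngp (0.62), S100a9 (0.61), S100a8 (0.60) and Lcn2 (0.59). Ceacam10 came 6th for Cd177. Ceacam10 was closest to Lcn2 (0.69), Ly6g (0.69), Ifitm6 (0.66), Retnlg (0.62) and Ngp (0.59), and Cd177 came 11th. Lcn2 and Ngp, the genes for lipocalin-2 and neutrophilic granule protein, stood among the nearest 5 of both. Ly6g, the neutrophil antigen read by Gr1 antibodies, and Retnlg, a resistin-like gene of late neutrophils, were among the nearest 5 of Ceacam10 but not of Cd177, and their r with Ceacam10 in the vehicle library was 0.18 and 0.24. For Ceacam1 the highest r was 0.21, with Lcn2, in sparse counts, and no gene is singled out from it. At the other end, Srgn had the lowest r for Cd177 (-0.54) and Ctsg for Ceacam10 (-0.65).

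Cells with the late neutrophil markers, several of which are in the granule list, showed the highest shares. Of 156 retinoic acid cells with at least 3 of these 7 markers, 95.5% had Cd177, 94.2% had Ceacam10 and 30.8% had Ceacam1. Cells with promyelocyte markers in the same library numbered 6261, and 63.1%, 31.6% and 7.51% of them had the 3 genes. Under vehicle only 4 cells had late neutrophil markers; 4 had Cd177, 4 had Ceacam10 and 2 had Ceacam1.

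The genes described around the members did not share their size of change. Within 250 kb of the Cd177 or Ceacam10 start site, 5 neighbours with at least 20 CPM in either library are given here, and each stayed within 2-fold. Rps19, a ribosomal protein gene, stood at a log2 ratio of 0.05, Arhgef1 at 0.07, Ethe1 at -0.18, Xrcc1 at -0.24 and Rabac1, from 375 to 257 CPM, at -0.55. The nearest genes with a row on either side, Lypd11 (0 and 3 UMIs) and Gm5893 (10 and 5 UMIs), were barely detected.

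Around Ceacam1 lay 24 other genes with a row in the matrices, 5 with at least 20 CPM. None of the 5 was at least 2-fold higher and 2 were at least 2-fold lower, with a median of -0.82; of all 5548 genes at that level 5.05% were at least 2-fold lower. The 2 were Bckdha, from 69.2 to 30.6 CPM (-1.17), and Tgfb1, the gene for a growth factor that restrains many blood cells, from 293 to 144 CPM (-1.03). B9d2 stood at -0.82, Exosc5 at -0.52 and Gsk3a at -0.20. Cxcl17 (1 and 7 UMIs) and Ceacam2 (2 and 4 UMIs) were the nearest genes with a row on either side.

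**Figure D5:**
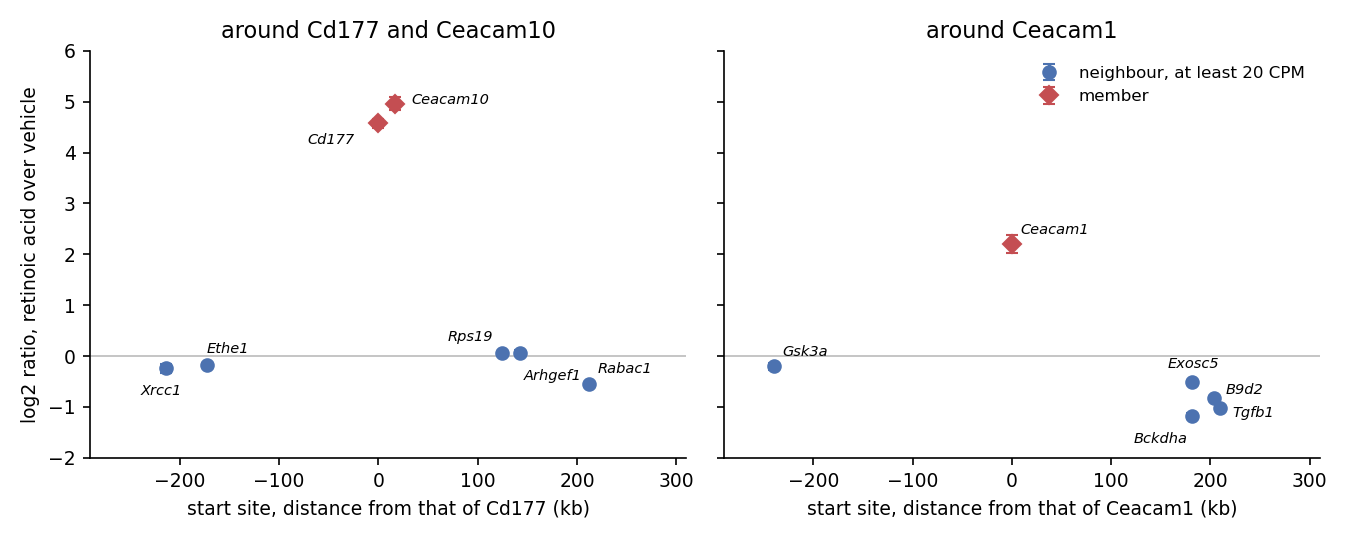
Log2 ratio of retinoic acid over vehicle for the members (diamonds) and for the neighbours described in the text, with at least 20 CPM in either library (circles), against the distance of their start sites in kb, with 95% counting intervals. Cd177 and Ceacam10 stand at 4.57 and 4.95 while the 5 neighbours drawn lie between -0.55 and 0.07; Ceacam1 stands at 2.20 while its 5 neighbours lie between -1.17 and -0.20.

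Among the 15 Ceacam genes with a row, few were detected. Besides the members, Ceacam16 had 85 and 127 UMIs in the vehicle and retinoic acid libraries, a log2 ratio of 0.42 (0.02 to 0.84). Ceacam18 had 9 and 12 UMIs, Ceacam2 had 2 and 4, and Ceacam19 had 2 and 2. The other 9, from Ceacam3 to Ceacam20, had 0 UMIs in both, which at a limit of 3 counts, used here in place of the Poisson interval, allows up to 0.030 CPM under vehicle and 0.027 CPM under retinoic acid.

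The genes for the binding partners of CD177 moved unevenly. Of the 3 with at least 20 CPM, 1 was at least 2-fold higher: Prtn3, from 246 to 2819 CPM (3.52). Itgb2, the beta chain of Mac-1, stood at 45.7 and 73.3 CPM (0.68) and Pecam1 at 80.7 and 73.6 CPM (-0.13). Itgam, the alpha chain of Mac-1, reached 9.48 and 19.8 CPM and fell short of the limit. Within the retinoic acid library Prtn3 was at 2527 CPM in the cells with Cd177 and 3018 CPM in those without, whereas Itgb2 was at 126 and 33.0 CPM. Granule share moved with this split, with a median of 6.44% in the cells with Cd177 and 1.52% in those without. In the cells with a granule share of 10% and above, Itgb2 stood at 219 CPM against 36.8 in the other cells, and Prtn3 at 1582 against 3129. The part of granule share in the comparison was not tested.

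Of the 6 CEACAM1 partner and signalling genes with at least 20 CPM, 0 were at least 2-fold higher and 1 was lower, with a median log2 ratio of 0.38. The 1 was Ptpn6, the gene for SHP-1, from 284 to 139 CPM (-1.03). Ptpn11, for SHP-2, stood at 0.59, the kinase genes Lyn at 0.64 and Syk at 0.66, and Flna, for filamin A, at 0.04. In the uPAR/Ly6 family, to which CD177 belongs, 4 genes reached 20 CPM and 1 was higher: Ly6g, from 35.6 to 281 CPM (2.98). Ly6e (-0.04), Ly6c2 (-0.14) and Plaur (-0.71), the urokinase receptor gene, stayed within 2-fold.

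Of 10 neutrophil surface protein genes, 5 were at least 2-fold higher and 1 was lower, with a median of 0.85. Besides Ly6g the higher ones were Cd24a (1.97), Clec5a (1.36), Clec12a (1.23) and the chemokine receptor gene Cxcr4 (1.01). Cd33, a sialic acid binding receptor gene, was the lower one, from 241 to 71.0 CPM (-1.76). The 7 genes for making and attaching the GPI anchor that reached 20 CPM had 0 changes of 2-fold in either direction and a median of -0.30, from Pigk at -0.61 to Pigp at 0.48. Of 8 granulocyte transcription factor genes 1 was higher, Cebpd (1.09), and the median was 0.53, with Gfi1 at 0.93, Spi1 at 0.76, Cebpe at -0.16 and Runx1 at -0.54. These lists were fixed with earlier results known, and their counts stand beside the 8.07% of all tested genes that differed at least 2-fold.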

How the data were processed

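Single-cell 3′ RNA-seq libraries of sorted promyelocytes were used, 1 per group. The deposited matrices hold UMI counts per gene and cell, not normalized, made with Cell Ranger 4.0.0 per the file headers, on mm10 (GRCm38.p4) per the submitters' processing notes. How reads that fit several genes were treated is not given in the sources used here. Of 5786 vehicle and 7416 retinoic acid barcodes, those with at least 1000 UMIs, 500 genes and at most 10% mitochondrial UMIs were kept; median depth was 16749.5 and 14604 UMIs. Counts were summed per library and gene, with 0.5 added in log2 ratios. Shares, co-expression and phases used cells thinned to 5000 UMIs (scanpy 1.11.5, scipy 1.17.1). With 1 library per group no test was run; the ratio code was checked on simulated data. Of 32285 gene IDs, 32158 matched GENCODE M21. Promoters came from RefSeq (GRCm38.p6), aligned with biopython 1.88. No doublets were removed: the caller (scrublet in scanpy) marked 2 and 5 cells, too few to have worked.

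The members and lists were chosen with earlier results of these data known. Named were the members, Ceacam genes with a count, neighbours with at least 20 CPM (1 is not reported here) or nearest, listed genes with at least 20 CPM, and the 5 genes most like each member. The alternatives were other filters, scalings, thinning depths and seeds, positivity thresholds, granule lists and doublet scores.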

Additional observations from a re-analysis of the deposited data

How the results depend on the processing

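No paired analysis was possible because there was 1 library for vehicle and 1 for retinoic acid. Of 106 recomputed values, 70 lay inside the main value's counting interval (for gene counts, within 1.5 times), 36 moved and 0 changed direction. The cause of a move was not tested unless the alternative itself makes it, as fewer UMIs per cell lower every share. With every cell weighted equally the log2 ratios were 4.21 for Cd177, 4.71 for Ceacam10 and 2.39 for Ceacam1. Leaving the granule list out of the total gave 4.66 for Cd177. The next 2 alternatives were added after seeing the data and used only cells with at least 5000 UMIs. Without cells of at least 10% granule UMIs the ratio was 4.34 for Ceacam10 and 1.61 for Ceacam1. Without cells of other marker classes it was 4.45 for Cd177 and 4.71 for Ceacam10. Differences in the share of positive cells, for Cd177, Ceacam10 and Ceacam1 in turn, were 50.6, 26.7 and 3.93 percentage points at 3000 UMIs, 76.4, 52.6 and 13.01 without thinning, and 40.7, 18.0 and 0.927 when a positive cell needed 2 UMIs. Leaving out the 5% of cells with the highest doublet scores gave 5.64 points for Ceacam1. In the retinoic acid library the log2 odds ratio of Cd177 and Ceacam10 was 2.0 at 10000 UMIs, 2.24 without high doublet scores and 3.25 with 2 UMIs. That of Cd177 and Ceacam1 was 1.90 with 2 UMIs. That of Ceacam10 and Ceacam1 was 1.73 at 3000 UMIs, 1.14 at 10000 and 2.48 with 2 UMIs. Under vehicle, the log2 odds ratio of Cd177 and Ceacam10 was 6.68 at 3000 UMIs, 4.53 at 10000 and 9.76 with 2 UMIs, against 5.89 in the main setting. Vehicle pairs with fewer than 5 cells holding both genes were not recomputed. For the highest against the lowest group by granule share, leaving the list out of the total gave 3.59, 5.58 and 2.96 for Cd177, Ceacam10 and Ceacam1. For Cd177 it was 3.07 without S100a8 and S100a9 in the list and 3.33 without high doublet scores. The number of genes at least 2-fold different was 923 at a limit of 5 CPM, 133 at 100 CPM and 6081 with no limit.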
